A study of Mus musculus with 15 samples.

Results

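The 10 genes described here are genes expressed by choroid plexus epithelium (Ttr, Folr1, Kl, Clic6, Otx2, Kcnj13, Slc4a5, Sostdc1, Kcne2 and Prlr), chosen by name from 53337 genes, and all 10 were found. The choice was made with earlier results of these data known. Bulk mRNA was sequenced from the dorsal forebrain of C57BL/6J mouse embryos at embryonic day 18, in 15 libraries, to ask how exposure to arginine vasopressin (AVP) in the womb changes the fetal brain. Dams carried a subcutaneous osmotic minipump that released AVP, a model of preeclampsia, or saline (labelled vehicle) from before breeding. The groups were AVP males (n = 4), saline males (n = 4), AVP females (n = 3) and saline females (n = 4). All groups share the strain, the age and an implanted dam. The brains came from 8 litters, and the paper states that the samples of a group were from independent litters. The labels do not link litters to libraries, so that males and females may be littermates. The p-values measure the spread between these libraries.

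The choroid plexus is a fold of vascular tissue covered by a secretory epithelium that hangs into the brain's ventricles and makes cerebrospinal fluid. In the dorsal forebrain it grows from the medial edge of the cortex. Its epithelium moves ions and water across its apical face, carries thyroid hormone and folate toward the brain, and depends on the homeobox factor OTX2.

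Every value below is in TPM, a unit of transcript abundance that is corrected for transcript length and sums to the same total in each library. The cortical origin of the libraries was plain: Neurod6 lay between 471 and 728 TPM and Tbr1 between 86.0 and 119 TPM. The library labelled saline male 3 held 266 TPM of Xist and a sum of 0.489 TPM over 4 Y-linked genes, against 0.121 to 1.13 TPM and 102 to 155 TPM in the other 7 male libraries, so its transcripts went against its label. It was kept under that label, and values without it are given beside the comparison of males. The library numbers in the labels form a run of 1 to 8 (7 libraries) and a run of 13 to 20 (8 libraries), whose meaning is not given.

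Ttr, which encodes transthyretin, the carrier of thyroid hormone and retinol-binding protein in cerebrospinal fluid, spanned 1.53 to 2197 TPM, a ratio of 1432. It lies on chromosome 18 (20665280 to 20674321, GRCm38). The 4 AVP males held 4.19, 4.82, 5.65 and 615 TPM of Ttr, and the 4 saline males 1.53, 6.98, 559 and 680 TPM. The 3 AVP females held 13.9, 1348 and 2197 TPM, and the 4 saline females 3.23, 16.6, 24.4 and 922 TPM. Each group held libraries with little Ttr and libraries with much, so that within every group the spread covered most of the range. The standard deviation of Ttr on the log2(TPM + 0.5) scale was 3.69, rank 2 of 15078 genes, against a median of 0.215 over those genes.

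The libraries fell into 9 with 1.53 to 24.4 TPM of Ttr and 6 with 559 to 2197 TPM, with a 22.9-fold gap between them and no library inside it. The 6 libraries with much Ttr were 1 of 4 AVP males, 2 of 4 saline males, 2 of 3 AVP females and 1 of 4 saline females. By library number, 5 of them were among the 7 libraries of the first run and 1 (AVP female 3) was among the 8 of the second. These sets are described library by library, since they are read from the data and are not groups of the study, and no test was run between them. In bulk tissue, fewer epithelial cells and less RNA per cell cannot be told apart.

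**Figure D1:**
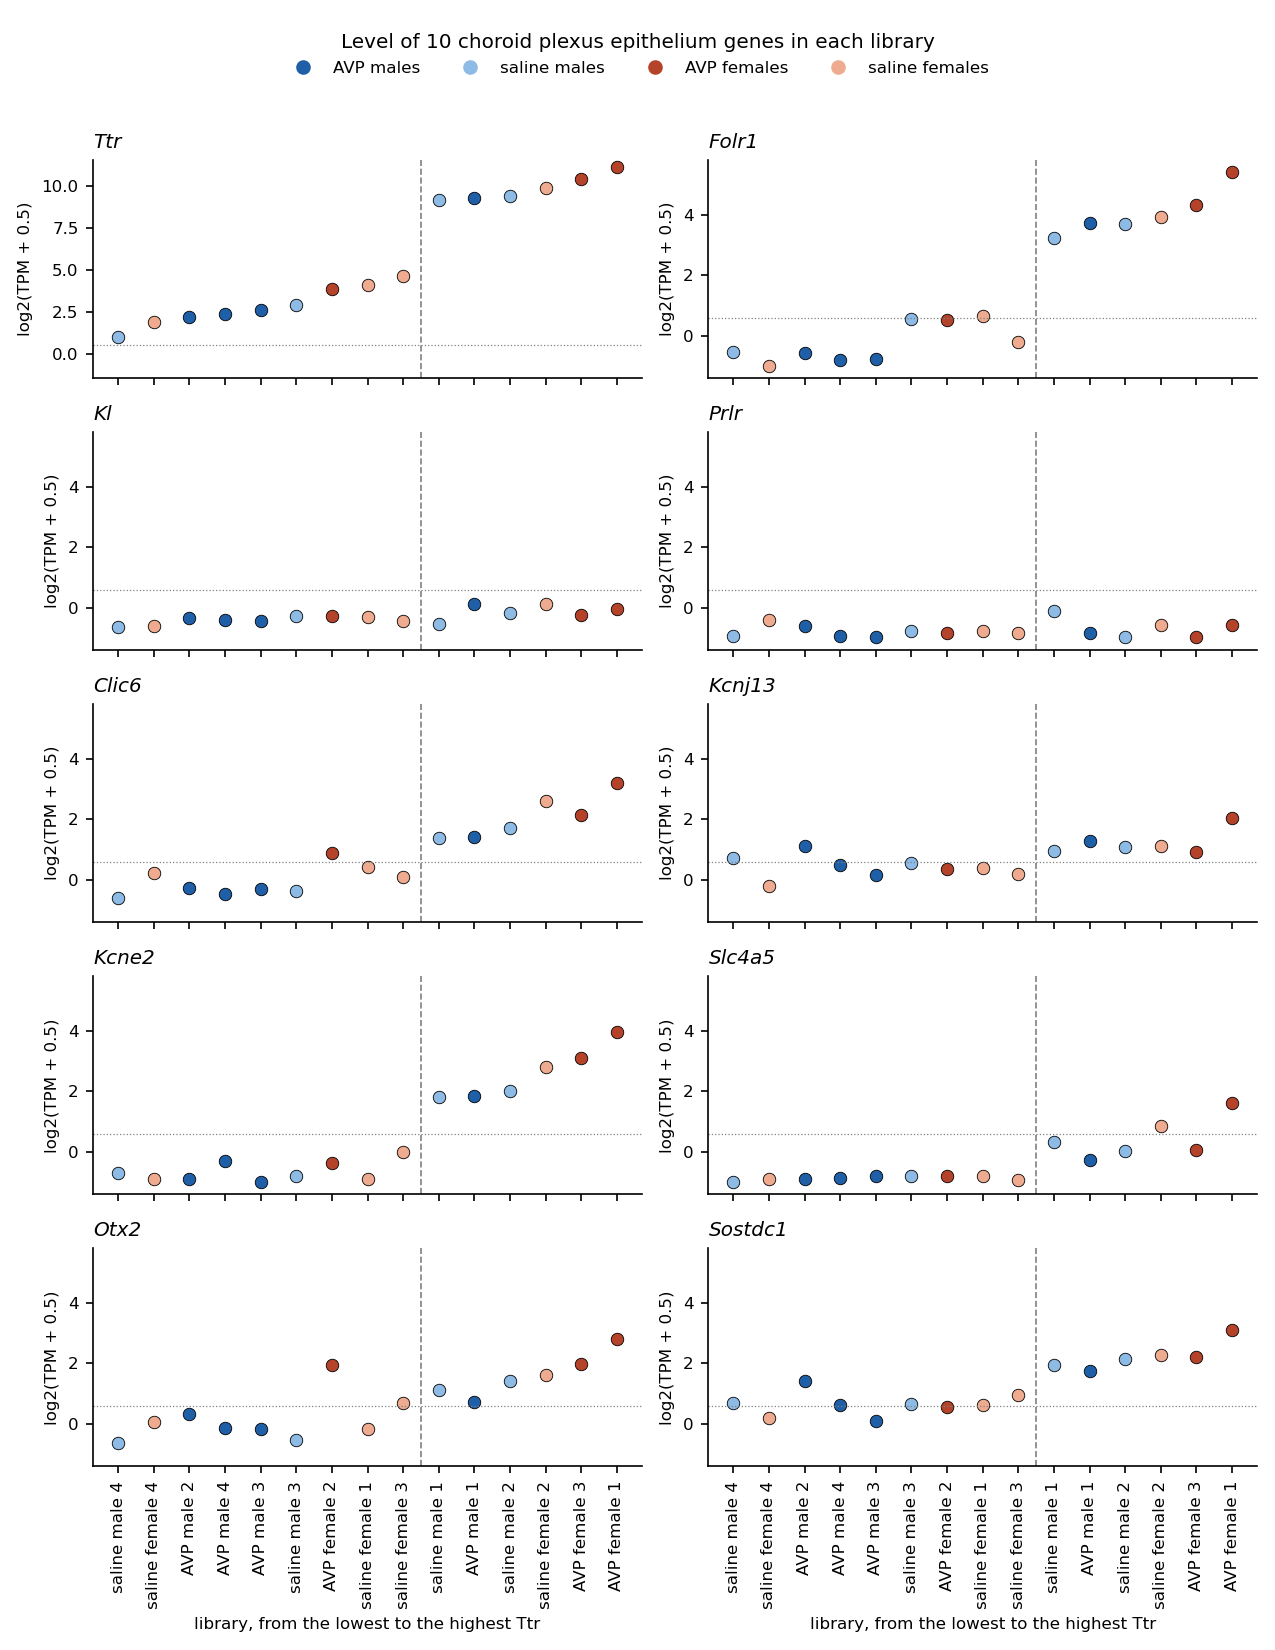
Level of each of the 10 genes on the log2(TPM + 0.5) scale (vertical axes) in the 15 libraries ordered by Ttr (horizontal axis), 1 point a library, coloured by group; the dashed line stands in the gap of Ttr between 24.4 and 559 TPM, and the dotted line marks 1 TPM. Ttr, Folr1, Clic6, Kcne2, Slc4a5 and Sostdc1 lie higher in all 6 libraries to the right of the dashed line than in any of the 9 to its left, whereas Kl and Prlr stay below 1 TPM throughout.

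Of the 10 genes, 6 were higher in every one of the 6 libraries with much Ttr than in any of the other 9: Ttr itself, Folr1, Clic6, Slc4a5, Sostdc1 and Kcne2. For Ttr this was fixed by how the sets were formed. Such a complete separation was found for 20 of the 18484 genes that reached 1 TPM in any library (0.108%), Ttr included. Nothing is read from the members' count against this share, since Kcne2 and Slc4a5 reached 1 TPM only in libraries with much Ttr. Kcnj13, Otx2 and Kl each had 1 library out of order, and Prlr ran across both sets. Kl and Prlr never reached 1 TPM. The genes thus differed in how near to 0 they lay in the libraries with little Ttr.

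Folr1 encodes folate receptor alpha, which takes 5-methyltetrahydrofolate through the epithelium into cerebrospinal fluid. It lies on chromosome 7 (101858331 to 101870788, minus strand). In the 6 libraries with much Ttr, Folr1 stood at 8.88, 12.7, 12.3, 14.8, 19.4 and 41.9 TPM, in the order of rising Ttr. In the other 9 it lay between 0 and 1.06 TPM, and it was listed at 0 in saline female 4. Folr1 was the second most abundant of the 10 in each of the 6 libraries, and in the others it passed 1 TPM only in saline female 1.

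Kcne2 encodes a small subunit that assembles with potassium channels, among them KCNQ1 at the apical face of this epithelium. It lies on chromosome 16 (92292389 to 92298129), 187.6 kb before Clic6 on the same strand. The 6 libraries with much Ttr held 3.0, 3.10, 3.56, 6.54, 8.12 and 14.9 TPM of Kcne2, in exactly the order of Ttr. The other 9 held 0 to 0.495 TPM, and AVP male 3 was listed at 0.

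The Kcne2 level was assigned mostly to different annotated transcripts in the 2 sets of libraries. Kcne2-201, which starts at 92292389, held 99.2% of the gene's TPM summed over the 6 libraries with much Ttr, and was above 0 in 1 of the other 9 (AVP male 2, 0.0368 TPM). Kcne2-202, which starts inside the gene at 92295616, held 97.4% of the TPM summed over those 9, and was above 0 in 7 of them, at 0.0406 to 0.495 TPM. Among the 6 libraries with much Ttr it was above 0 only in saline male 2, at 0.299 TPM. The 2 transcripts share 1555 bases, and 135 of the 1690 bases of Kcne2-201 and 77 of the 1632 of Kcne2-202 are their own, so the split rests on few reads and on how shared reads were divided. The 250 bases before each start are shown because most of the TPM was assigned to different starts in the 2 sets of libraries. AVP male 2 was the exception, and AVP male 3 was at 0 for both transcripts. The 2 windows come from RefSeq (GRCm38.p6), run from 5′ to 3′ and hold no TATAAA or TAATCC on either strand. The first window (chr16:92292139-92292388, plus strand) lies outside annotated genes, and the second (chr16:92295366-92295615, plus strand) lies in an intron of Kcne2-201.
Kcne2-201 start: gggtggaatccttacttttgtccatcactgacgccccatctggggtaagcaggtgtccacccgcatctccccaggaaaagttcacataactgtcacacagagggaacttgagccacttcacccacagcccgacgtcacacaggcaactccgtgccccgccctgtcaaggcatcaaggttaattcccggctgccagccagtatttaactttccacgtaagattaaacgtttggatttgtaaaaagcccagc
Kcne2-202 start: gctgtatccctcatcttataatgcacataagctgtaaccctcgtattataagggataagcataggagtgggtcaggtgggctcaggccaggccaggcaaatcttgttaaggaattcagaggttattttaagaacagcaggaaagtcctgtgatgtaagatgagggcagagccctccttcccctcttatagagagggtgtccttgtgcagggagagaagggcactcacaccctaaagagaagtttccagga

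**Figure D2:**
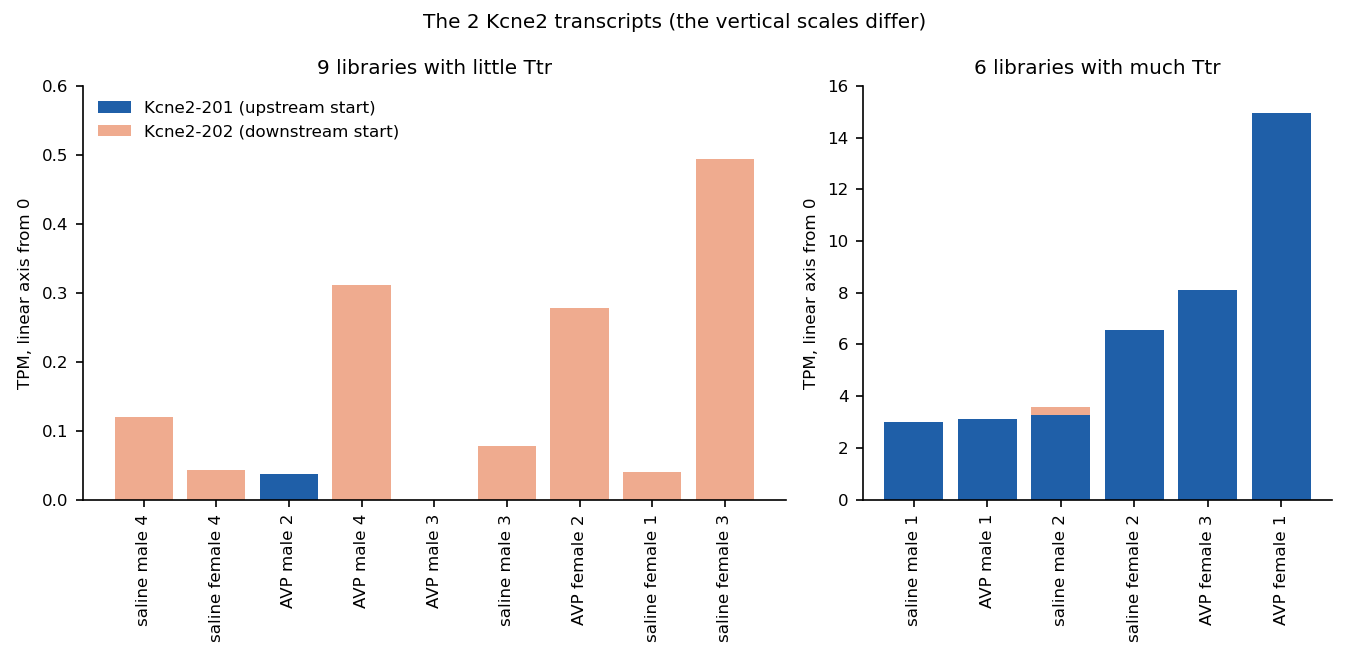
TPM of the 2 Kcne2 transcripts (vertical axes, linear from 0, on different scales) stacked in each library in the order of Ttr, with the 9 libraries with little Ttr at the left and the 6 with much at the right. The transcript with the upstream start makes up the bars at the right, which reach 14.9 TPM, and the one with the downstream start makes up 7 of the 8 bars at the left, none above 0.495 TPM.

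Slc4a5 encodes a sodium bicarbonate cotransporter of the apical membrane, and lies on chromosome 6 (83219828 to 83304945). It was the least abundant of the genes that followed Ttr. The libraries with much Ttr held 0.759, 0.336, 0.510, 1.31, 0.550 and 2.56 TPM, and the others 0 to 0.0753 TPM. The transcript Slc4a5-201 held 62.5% of the gene's TPM summed over the former and was at 0 in all 9 of the latter. It was also at 0 in AVP male 1, a library with much Ttr, where 79.2% of the gene's TPM was assigned to Slc4a5-202. Only 2 of the 15 libraries passed 1 TPM, saline female 2 and AVP female 1.

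Clic6, a member of the family of intracellular chloride channel proteins on chromosome 16 (92485736 to 92541243), stood at 2.13, 2.18, 2.74, 5.60, 3.92 and 8.73 TPM in the 6 libraries with much Ttr. The other 9 held 0.155 to 1.35 TPM, and the highest of these was AVP female 2. Clic6 was above 0 in every library, all of it from Clic6-201, whereas Folr1, Slc4a5 and Kcne2 were each listed at 0 in 1 library. In saline male 4, the library with the lowest Ttr, Folr1 (0.184 TPM) was nevertheless higher than Clic6 (0.155 TPM).

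Sostdc1 encodes a secreted antagonist of BMP and Wnt signalling, and lies on chromosome 12 (36314139 to 36318452). It separated the libraries as Ttr did, but from a higher floor. The 6 libraries with much Ttr held 3.38, 2.85, 3.92, 4.37, 4.18 and 8.03 TPM of Sostdc1, and the other 9 held 0.561 to 2.17 TPM, 6 of them at 1 TPM or more. The library with the lowest Ttr, saline male 4, held 1.12 TPM of Sostdc1, which was 7.15-fold below the library with the highest Ttr, whereas Ttr itself differed 1432-fold between these libraries and Kcne2 125-fold.

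Otx2 encodes the homeobox factor of the choroid plexus, also present in the thalamus and midbrain, and lies on chromosome 14 (48657677 to 48673819, minus strand). In the order of Ttr, the 6 libraries with much of it held 1.69, 1.16, 2.15, 2.54, 3.44 and 6.51 TPM of Otx2. Of the other 9, 8 held 0.150 to 1.10 TPM, and AVP female 2 held 3.40 TPM with only 13.9 TPM of Ttr. The same library ranked 1 of 15 for the summed TPM of 10 genes of thalamus and dorsal midbrain, at 138.8 TPM against 35.8 to 84.3 TPM in the other 14. Of this sum 87.2 TPM was Calb2. It held the highest Tcf7l2, Lhx9, Rora, Slc17a6, Lef1, Prox1 and Calb2 of the list, while Gbx2, Pax7 and Sox14 were at 0. It also ranked 1 of 15 for the lists of cortical hem and Cajal-Retzius cells (130 TPM), radial glia (3121 TPM) and ion and water transport (445 TPM). The part of any of these in its Otx2 level was not tested.

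Kcnj13, which encodes the inward rectifier potassium channel Kir7.1 of the apical membrane, was above 0 in every library and differed less between them than Ttr. It lies on chromosome 1 (87386363 to 87394729, minus strand). The libraries with much Ttr held 1.43, 1.92, 1.61, 1.66, 1.39 and 3.62 TPM, and the others 0.364 to 1.69 TPM. AVP male 2, with 4.19 TPM of Ttr, held 1.69 TPM of Kcnj13 and so lay above 4 of the 6 libraries with much Ttr. From the library with the lowest Ttr to that with the highest, Kcnj13 rose from 1.16 to 3.62 TPM, a ratio of 3.13. Kcnj13 lies inside Gigyf2 on the opposite strand, which stood at 43.7 to 53.6 TPM, and 623 of its 1270 exonic bases are also exonic in Gigyf2. Reads were assigned by strand, and the part of Gigyf2 reads in the Kcnj13 level was not tested.

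The 250 bases before the Kcnj13 start (chr1:87394730-87394979 of GRCm38.p6, from RefSeq, minus strand, within an intron of Gigyf2) are shown as those of a member that was still measured in every library with little Ttr, beside the Kcne2 windows. Capitals mark TATAAA, 29 bases before the start.
Kcnj13 start: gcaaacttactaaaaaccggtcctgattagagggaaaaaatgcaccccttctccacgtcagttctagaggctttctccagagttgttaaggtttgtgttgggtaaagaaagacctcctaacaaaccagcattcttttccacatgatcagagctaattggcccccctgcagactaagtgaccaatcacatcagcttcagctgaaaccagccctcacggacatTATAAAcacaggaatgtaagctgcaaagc
Of the 10 members, 6 had RefSeq promoter windows, 12 in all, of which 3 held TATAAA or its reverse complement TTTATA, against 12.4% of 32851 promoters of all genes over the same 250 bases. TAATCC, the core recognised by OTX factors, or its reverse complement GGATTA was in 1 of the 12, before an Otx2 start, against 6.25% of all promoters. A match of letters is a description and marks no binding site.

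Kl and Prlr stayed below 1 TPM whatever the level of Ttr. Kl encodes klotho, the co-receptor for fibroblast growth factor 23, and lies on chromosome 5 (150952607 to 150993817). The 6 libraries with much Ttr held 0.182, 0.599, 0.386, 0.580, 0.339 and 0.466 TPM of Kl, and the other 9 held 0.146 to 0.332 TPM. Saline male 1, at 0.182 TPM, lay below 7 of these 9, and the rest of the 6 lay above all 9. The median of Kl was 0.426 TPM in the 6 and 0.248 TPM in the 9. Kl was above 0 in all 15 libraries, so its level did not vanish with Ttr. Prlr encodes the prolactin receptor, and lies on chromosome 15 (10177238 to 10349180). Its highest values were 0.419 TPM in saline male 1 and 0.254 TPM in saline female 4, which has the second lowest Ttr, and the library with the second highest Ttr (AVP female 3) held 0.0162 TPM. Among the 6 libraries with much Ttr, Prlr ranged from 0.0116 to 0.419 TPM, so that no order with Ttr could be read at this level.

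Relative to Ttr, the genes differed in how far their ratios spread over the 6 libraries with much of it. Per 1000 TPM of Ttr there were 14.4 to 20.6 TPM of Folr1, 5.04 to 7.09 TPM of Kcne2 and 1.89 to 3.16 TPM of Otx2, while Ttr itself varied 3.93-fold. The highest ratio was 1.43 times the lowest for Folr1, 1.41 times for Kcne2 and 1.67 times for Otx2. Sostdc1 (3.10 to 6.04 TPM) and Clic6 (2.90 to 6.07 TPM) were wider, and Kcnj13 (1.03 to 3.12 TPM, 3.03 times from lowest to highest) and Slc4a5 (0.408 to 1.42 TPM, 3.49 times) came near the range of Ttr itself. For Kl the range was 0.212 to 0.974 TPM, 4.59 times from lowest to highest, which is wider than the range of Ttr.

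**Figure D3:**
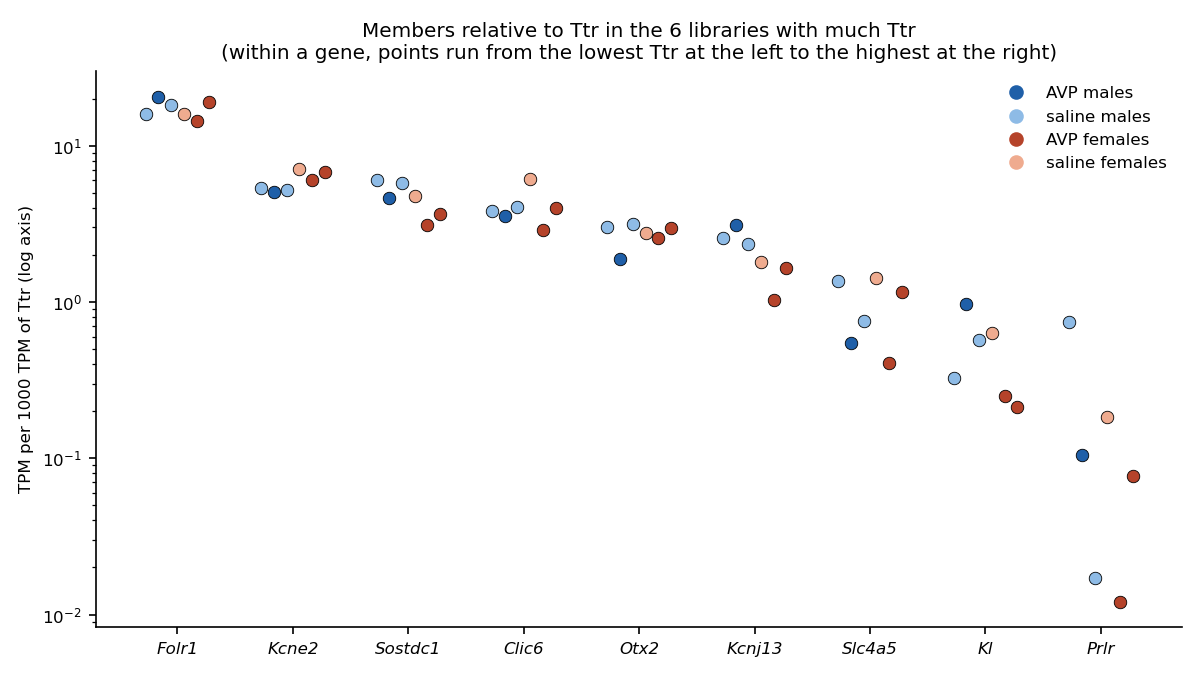
TPM of each gene per 1000 TPM of Ttr (vertical axis, log scale) in the 6 libraries with much Ttr, 1 point a library, coloured by group and ordered within each gene from the lowest to the highest Ttr. Folr1 (14.4 to 20.6) and Kcne2 (5.04 to 7.09) stay within a narrow band, and Prlr is scattered most widely.

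Because the libraries formed separate clusters in Ttr, no correlation over all 15 was tested or is given as a value. Within the 6 libraries with much Ttr, 17249 genes reached 1 TPM and were each correlated with Ttr on the log2(TPM + 0.5) scale, among them 7 members. All males among these libraries (559, 615 and 680 TPM of Ttr) lay below all females (922, 1348 and 2197 TPM). A relation with Ttr therefore cannot be told apart here from a difference between the sexes. The permutations treated libraries of different groups as exchangeable. Kcne2 had the highest Pearson's r of all these genes (r = 0.99, exact permutation p = 0.00139, Spearman's rho = 1, exact p = 0.00278), both the smallest p that 6 libraries allow. Folr1 ranked 5 (r = 0.97, exact p = 0.00278, rho = 0.94, exact p = 0.0167) and Otx2 ranked 9 (r = 0.96, exact p = 0.00417, rho = 0.94, exact p = 0.0167). Sostdc1 ranked 47 (r = 0.91, exact p = 0.00972, rho = 0.89, exact p = 0.0333) and Clic6 ranked 49 (r = 0.90, exact p = 0.0125, rho = 0.94, exact p = 0.0167).

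An r above 0 with an exact p under 0.05 was found for 149 of the 17249 genes (0.864%) and for 5 of the 7 members. The members' count and ranks carry no weight beside this share, since the members were chosen with earlier results of these data known. Adjusted over all these genes with the Benjamini-Hochberg method, none of them passed 0.05 (adjusted p = 0.998 for each of the 7 members by Pearson's r, 0.956 by Spearman's rho), and with 6 libraries p cannot go below 0.00139. Slc4a5 (r = 0.74, exact p = 0.0792, rho = 0.54, exact p = 0.297) and Kcnj13 (r = 0.68, exact p = 0.132, rho = 0.26, exact p = 0.658) did not pass even unadjusted. Kl and Prlr were below 1 TPM and gave r of 0.21 (exact p = 0.674) and -0.18 (exact p = 0.708), with rho of 0.14 (exact p = 0.803) and -0.26 (exact p = 0.658).

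Without the 2 libraries farthest from the median of Ttr, r over the 4 that remained was 0.98 for Kcne2 and Clic6, 0.84 for Folr1, 0.79 for Sostdc1, 0.75 for Otx2 and 0.71 for Slc4a5. For Kcnj13 it dropped to 0.17, so its relation rested on those libraries. Without AVP female 1 alone, the library with most Ttr, r for Kcnj13 was -0.42 and for Slc4a5 0.21. Within the first run of library numbers, which held 5 of the 6, r was 0.99 for Kcne2, 0.98 for Folr1, 0.96 for Otx2, 0.97 for Sostdc1, 0.95 for Clic6, 0.92 for Kcnj13 and 0.91 for Slc4a5.

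**Figure D4:**
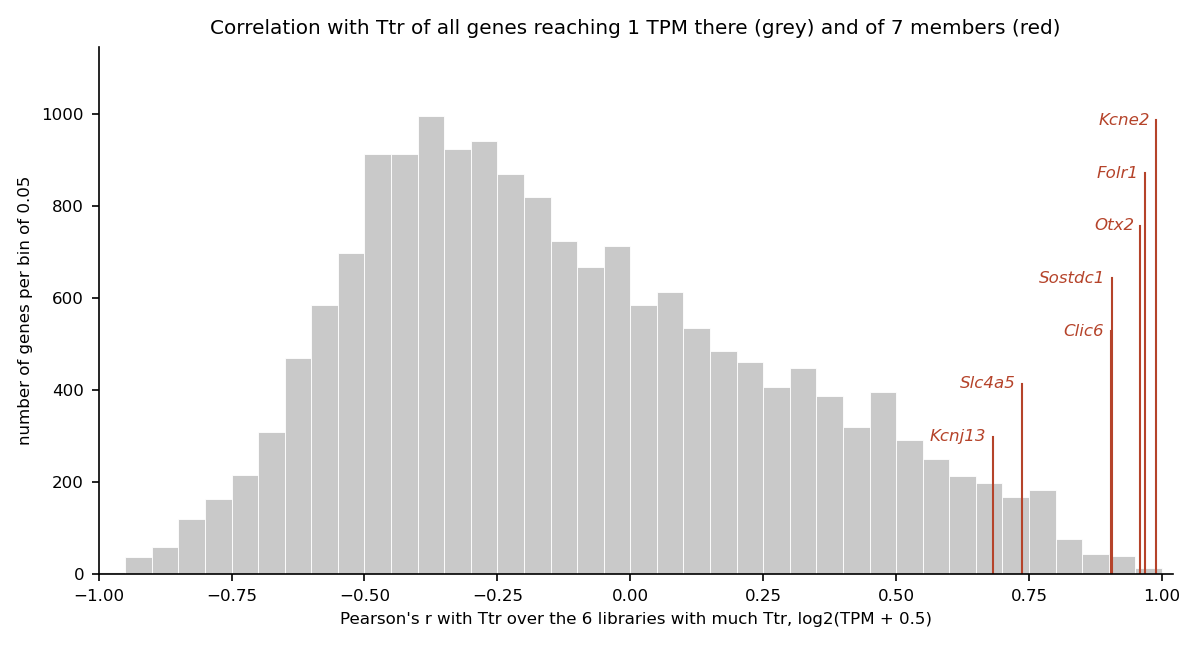
Number of genes (vertical axis) by Pearson's r with Ttr over the 6 libraries with much Ttr (horizontal axis, in bins of 0.05) for the 17249 genes reaching 1 TPM there, in grey, with 7 members as red lines whose height carries no value. Kcne2, Folr1, Otx2, Sostdc1 and Clic6 lie at 0.90 or above, where few genes lie, and Slc4a5 (0.74) and Kcnj13 (0.68) lie lower.

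Within the 9 libraries with little Ttr, 5 members were tested and each had a lower r than in the 6, a difference that was not tested. Folr1 and Clic6 both had r = 0.64 (exact p = 0.0665 and 0.0634; rho = 0.67 and 0.53, exact p = 0.0589 and 0.148). Otx2 had r = 0.54 (exact p = 0.130, rho = 0.38, exact p = 0.313), Sostdc1 0.13 (exact p = 0.750, rho = -0.02, exact p = 0.982) and Kcnj13 -0.26 (exact p = 0.512, rho = -0.28, exact p = 0.463), and their adjusted p over 17888 genes was 1. None of these 5 had an exact p under 0.05, which with an r above 0 was met by 528 of the 17888 genes (2.95%). The other members were below 1 TPM in all 9 libraries and gave r of 0.61 for Kl (exact p = 0.0829), 0.54 for Slc4a5 (exact p = 0.136), 0.48 for Kcne2 (exact p = 0.194) and -0.13 for Prlr (exact p = 0.744). Without the 2 libraries farthest from the median of Ttr, r was 0.87 for Folr1, 0.65 for Clic6, 0.39 for Otx2, -0.00022 for Sostdc1 and 0.042 for Kcnj13. Over the 7 of these libraries in the second run it was 0.54 for Folr1, 0.57 for Clic6, 0.69 for Otx2, 0.41 for Sostdc1 and -0.21 for Kcnj13.

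The effect of AVP was compared within each sex. In males, 1 of 15271 genes passed an adjusted p of 0.05 by limma (0.00655%), and 13.5% passed an unadjusted p of 0.05. Of the members, 3 were high enough to be tested (1 TPM in at least 50% of the libraries compared), and none passed either threshold. For Ttr the log2 difference of AVP minus saline males was -1.49 (SE 2.24, adjusted p = 0.795 by limma; exact permutation p = 0.714), with 3 of the 4 AVP males and 2 of the 4 saline males in the set with little Ttr. Sostdc1 differed by -0.40 (SE 0.47, limma adjusted p = 0.728) and Kcnj13 by -0.07 (SE 0.28, limma adjusted p = 0.933). The 4 AVP males held 0.561, 1.05, 2.17 and 2.85 TPM of Sostdc1 and the 4 saline males 1.09, 1.12, 3.38 and 3.92 TPM. The values of the 2 groups were interleaved.

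The difference was below 0 for 9 of the 10 members in males, of which Kcnj13 turned above 0 with median-of-ratios scaling or quantile normalization, and above 0 for Kl (0.15, exact p = 0.486). The median over all genes tested was -0.10 and moved to 0.0031 with median-of-ratios scaling. Of all genes tested, only 26.4% had a difference above 0, so nothing is read from the members' count. For Folr1 the difference was -1.34 (exact p = 0.343), for Kcne2 -0.68 (exact p = 0.543) and for Clic6 -0.44 (exact p = 0.743). The AVP and saline males overlapped for all 10 members, and did not overlap, in either direction, for 7.27% of the genes tested. The smallest exact p that 4 against 4 libraries allow is 0.0286.

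Leaving out 1 library at a time, the log2 difference of Ttr in males lay between -3.20 (without AVP male 1, the 1 AVP male with much Ttr) and -0.22 (without saline male 2), and it was -2.39 without the library labelled saline male 3. Without that library the difference was also -1.13 for Kcne2, -0.73 for Clic6, -0.63 for Sostdc1, -0.45 for Otx2 and -0.16 for Kcnj13, and no member passed a threshold. Within the first run of library numbers, AVP males held 4.19 and 615 TPM of Ttr and saline males 559 and 680 TPM. Within the second run, AVP males held 4.82 and 5.65 TPM and saline males 1.53 and 6.98 TPM. Neither run set the treatments apart.

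**Figure D5:**
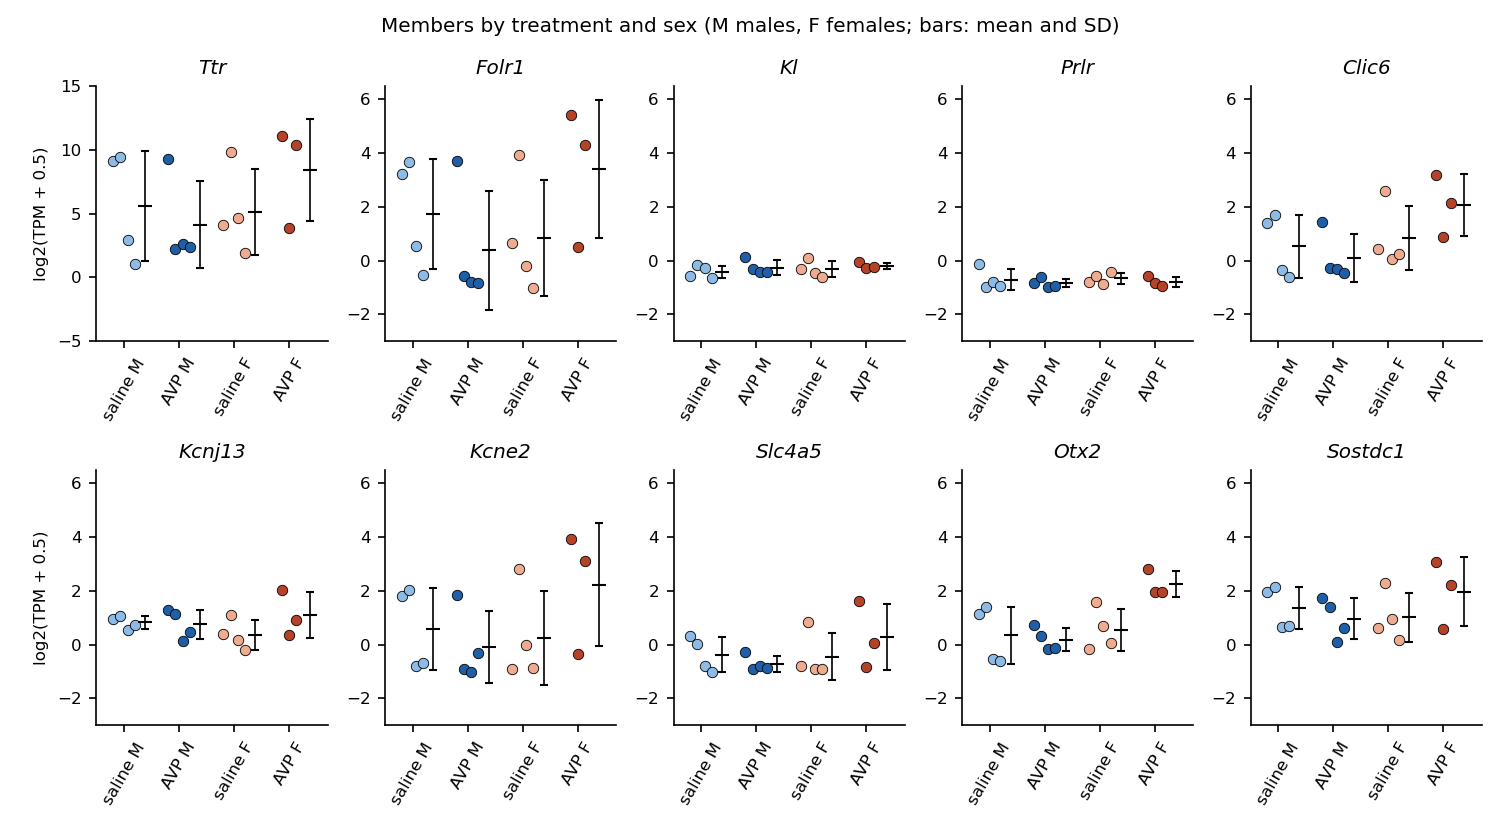
Level of each gene on the log2(TPM + 0.5) scale (vertical axes) in saline and AVP males and females (horizontal axis), 1 point a library, with bars for the mean and standard deviation. Within the groups Ttr spreads over most of its range, from 1.53 to 2197 TPM, and the groups of the same sex overlap for every gene except Otx2 in females.

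In females, 0 of 15132 genes passed an adjusted p of 0.05 by limma (0%), and 4.51% passed an unadjusted p of 0.05. Of the members, 5 were tested: none passed the adjusted threshold and 1, Otx2, passed the unadjusted. The AVP females held 3.40, 3.44 and 6.51 TPM of Otx2, and the saline females 0.395, 0.534, 1.10 and 2.54 TPM. Every AVP female thus lay above every saline female, as was so for 421 of the 15132 genes (2.78%). The log2 difference was 1.71 (SE 0.44, limma p = 0.00418, adjusted p = 0.999; exact permutation p = 0.0571, where the smallest that 3 against 4 libraries allow is 0.0286). In the first run of library numbers, the AVP female held 6.51 TPM and the saline females 0.395 and 2.54 TPM. In the second, the AVP females held 3.40 and 3.44 TPM and the saline females 0.534 and 1.10 TPM. One of the 3 AVP females is the library with the highest sum of thalamus and midbrain genes named above, and the other 2 are libraries with much Ttr.

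Ttr was higher in AVP than in saline females by 3.33 on the log2 scale (SE 2.14, limma adjusted p = 0.999, exact p = 0.257), a difference within the spread of the groups. AVP female 2, with 13.9 TPM, lay below 3 of the 4 saline females, and saline female 2, with 922 TPM, lay among the AVP females. Folr1 differed by 2.57 (SE 1.38, exact p = 0.200), Clic6 by 1.24 (SE 0.71, exact p = 0.229) and Sostdc1 by 0.95 (SE 0.65, exact p = 0.314), each with a limma adjusted p of 0.999. Leaving out 1 library at a time, the difference lay between 2.0 and 5.63 for Ttr, 1.57 and 4.01 for Folr1, 0.68 and 1.84 for Clic6 and 0.38 and 1.65 for Sostdc1, each lowest without AVP female 1 and highest without AVP female 2. Kcne2 (1.97, exact p = 0.229), Kcnj13 (0.74, exact p = 0.257) and Slc4a5 (0.73, exact p = 0.457) were too low for the limma fit, and lay between 1.11 and 3.27, 0.27 and 1.11, and 0.07 and 1.28 without the same libraries. The difference was above 0 for 9 of the 10 members, beside a median of -0.05 over all genes tested, and below 0 only for Prlr (-0.13, exact p = 0.4). Of all genes tested, 36.9% had a difference above 0. The members' signs are not independent, since genes that followed Ttr were read in the same libraries.

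Markers of some other tissues stood higher in AVP than in saline females. The counts below stand beside the 4.51% of all genes tested with an unadjusted p under 0.05 by limma. For single genes, every AVP female lay above every saline female in 2.78% of those tested. No such share was worked out for sums of lists. Of the meningeal fibroblast list, 8 of 10 tested genes had an unadjusted p under 0.05 by limma and none an adjusted one (median log2 difference 0.88), and their sum was 207 to 290 TPM in AVP females and 126 to 154 TPM in saline females. Of the red blood cell list, 5 of 5 tested genes had an unadjusted p under 0.05 and none an adjusted one (median 1.04), with sums of 5130 to 13658 TPM and 2241 to 5707 TPM that overlapped. Of the endothelium list, 2 of 4 tested genes had an unadjusted p under 0.05 and none an adjusted one (median 0.43), with sums of 118 to 133 TPM and 67.5 to 113 TPM that did not overlap. The ventral forebrain list went the other way, with 0 of 8 tested genes above 0 (median -0.58). The medians of the cortical neuron, radial glia, ependymal, cortical hem and thalamus lists lay between 0.01 and 0.24. The part of any of these tissues in the Otx2 difference was not tested.

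The difference between the sexes in the response to AVP was tested as an interaction. None of 15078 genes passed an adjusted p of 0.05 by limma (0%), and 4.14% passed an unadjusted p of 0.05. Of the 4 members tested, 1 passed the unadjusted threshold. That was Otx2, with 1.87 more on the log2 scale in females than in males (SE 0.72, limma adjusted p = 0.896). The values for Ttr (4.81, SE 3.45), Sostdc1 (1.35, SE 0.86) and Kcnj13 (0.81, SE 0.54) had the same limma adjusted p of 0.896. The library labelled saline male 3, whose transcripts went against its label, entered the interaction as a male. Leaving out 1 library at a time, the Otx2 value lay between 1.52 and 2.22. The interaction shares all its libraries with the comparisons in each sex. Males and females that may be littermates entered it as independent libraries.

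Of the 32 further genes listed for choroid plexus epithelium, 29 reached 1 TPM in some library and 4 of them separated the 2 sets of libraries as Ttr did. These were the calmodulin-like Calml4 (0.457 to 1.42 TPM in the 9 libraries and 2.75 to 10.1 TPM in the 6), the tight junction protein claudin 2 (Cldn2, 0.0181 to 0.288 and 0.973 to 2.06 TPM) and the epithelial keratins Krt8 (0 to 0.234 and 0.302 to 2.26 TPM) and Krt18 (0 to 0.329 and 0.810 to 5.04 TPM). Over all genes reaching 1 TPM, 0.108% separated the sets. Nothing is read from the count of 4 against this share, since Cldn2, Krt8 and Krt18 reached 1 TPM only with much Ttr. The most abundant of the list did not separate the sets: Igfbp2 held 146 to 218 and 166 to 254 TPM, Igf2 76.0 to 185 and 61.5 to 210 TPM, and Slc29a4 57.5 to 90.9 and 53.6 to 93.1 TPM. Col9a3, Vat1l and Spint2 likewise overlapped, with means of 42.0, 25.1 and 21.1 TPM over the 15 libraries. The sum of the list overlapped between the sets, 530 to 716 TPM in the 9 libraries and 569 to 832 TPM in the 6. AVP female 1 (832 TPM), saline male 2 (781 TPM) and AVP female 3 (769 TPM), all with much Ttr, lay above all 9. None of the 24 genes of the list tested passed an adjusted p of 0.05 by limma in either sex. Unadjusted, 2 of the 24 passed in males and 4 in females, beside 13.5% and 4.51% of all genes tested. The median log2 differences of the list were -0.07 and 0.24.

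Partners of the members in the pathway did not separate the libraries. None of 11 genes of ion and water transport did, among them the sodium pump beta subunit Atp1b1 (77.4 to 155 TPM in the 9 libraries and 54.2 to 145 TPM in the 6). None of 18 ligand, cargo and receptor genes reaching 1 TPM did either, among them the klotho partner Fgfr1 (39.1 to 88.7 and 44.7 to 79.0 TPM). No gene of either list passed an adjusted p of 0.05 by limma in males or females. Of the ependymal and multiciliated list, 1 of the 6 genes reaching 1 TPM separated the libraries, Cfap126 (0.413 to 1.87 and 2.07 to 6.71 TPM), whereas the ciliary master regulator Foxj1 overlapped (3.10 to 8.25 and 2.94 to 6.24 TPM).

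Besides the 6 members, 14 genes were higher in all 6 libraries with much Ttr, here named after their values were seen. The widest gap was that of Defb11, a beta-defensin gene (0 to 0.408 TPM in the 9 libraries and 6.21 to 17.4 TPM in the 6). Next by the ratio across the gap were Klk4, a kallikrein protease gene (0 to 0.0444 and 0.526 to 1.80 TPM), 2900040C04Rik (0 to 0.429 and 2.82 to 12.8 TPM) and Prr32 (0 to 0.167 and 0.986 to 4.93 TPM). The others were Sulf1, Wfikkn2, Mfrp, Ugt1a6b and Pon1, with Calml4, Cfap126, Cldn2, Krt8 and Krt18 of the lists above. In the other direction, 11 genes were lower in all 6, with small changes, such as Ank2 (111 to 144 and 91.9 to 107 TPM) and Ube2v2 (147 to 188 and 133 to 147 TPM).

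The 10 genes whose pattern was most like that of Ttr, by Pearson's r over the 15 libraries among genes with 1 TPM in at least 50% of them, were, leaving out the members themselves, Wfikkn2, Calml4, Car12, Cfap126, 1500015O10Rik (Ecrg4), Rpl7a, B330016D10Rik, Rnaset2a, Gm15687 and Arsg. Within the 6 libraries with much Ttr, r with Ttr was 0.99 for Calml4, 0.95 for Cfap126, 0.90 for Arsg, 0.89 for Wfikkn2 and Ecrg4 and 0.85 for Car12. It was 0.69 for Rpl7a, 0.31 for Rnaset2a, -0.17 for Gm15687 and -0.18 for B330016D10Rik, so that these 4 followed Ttr less closely there. The order over 15 libraries rests largely on the step between the 2 sets, and is a description with no test. Car12, a carbonic anhydrase of epithelia, had a similar r within the 9 libraries with little Ttr (0.86). It held 0.601 to 2.23 TPM there and 2.15 to 5.97 TPM in the 6.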

How the data were processed

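Total RNA of 15 embryonic brains was made into stranded mRNA libraries. The authors trimmed reads with Trim Galore 0.4.1, checked them with FastQC 0.5.2 and quantified GENCODE M16 transcripts (GRCm38) with kallisto 0.43.1, stranded, per the methods and the submitters' processing notes. The deposited values are TPM per transcript. TPM keeps no read depth, so the depth behind a value is unknown here, and low values are less certain than they look. The authors left out 1 AVP female library as an outlier; it was not analysed here.

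Here the 133849 transcripts were added up by gene, giving 53337 genes of GENCODE M21. Of these transcripts, 404 had no gene there (0.154 to 0.199% of TPM) and were left out. Treatment was compared within each sex with limma 3.58.1 (R 4.3.3, trend option on) on log2(TPM + 0.5), a scale that understates changes of low genes. Genes entered where 50% or more of the libraries compared held 1 TPM or more, with Benjamini-Hochberg adjustment over all of them. Differences of single members were also tested by two-sided exact permutation. Correlations with Ttr were tested by two-sided exact permutation within each set of libraries, for genes reaching 1 TPM there, and adjusted over all those genes rather than over the members alone as first planned, because the members and lists were chosen with earlier results of these data known. Libraries were treated as separate sets because the largest gap in Ttr was 44.6% of its range. Named genes were the 10 members, up to 6 genes a list with the highest mean TPM, the 10 genes most like Ttr, and those of the sex check; genes that separated the libraries, and Rora, Gbx2, Pax7 and Sox14, were named after their values were seen. Libraries are numbered within a group in the order of their records. The fits were tested on simulated data. Other pseudocounts, filters, scalings, fits and leaving out each library were tried.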

Additional observations from a re-analysis of the deposited data

Results flagged for a closer look

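In the groups of 4 libraries, each of the 10 genes, Xist and the Y-linked sum was examined for a library that stood apart by Dixon's ratio on the log2(TPM + 0.5) scale. Over 36 such looks, 9 passed, where chance gives about 1 in 20, or 1.8. The looks are not independent, since genes that followed Ttr were examined in the same libraries. The 9 against 1.8 is therefore no test.

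AVP male 1 stood above the other AVP males for Ttr (615 TPM), Folr1 (12.7 TPM), Clic6 (2.18 TPM) and Slc4a5 (0.336 TPM). It is the 1 AVP male among the 6 libraries with much Ttr. Saline female 2 stood above the other saline females for Clic6 (5.60 TPM) and Slc4a5 (1.31 TPM), and it is likewise the 1 saline female with much Ttr.

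The library labelled saline male 3 stood apart from the other saline males in Xist (266 TPM) and in the Y-linked sum (0.489 TPM). Saline female 1 had a Y-linked sum of 0.250 TPM, below the other saline females, all of them near 1 TPM or less.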

How the results depend on the processing

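No member passed an adjusted p of 0.05 in either sex or in the interaction under any alternative run. For the correlations with Ttr over 6 libraries none passed either, which says little, as p cannot go below 0.00139 there. The count of genes called in males, 1 in the report, was 0 with a pseudocount of 1, with at least 5 TPM in every library, with the run of library numbers as a covariate and with 1 fit of all 15 libraries, and 2 without the mean-variance trend. Leaving out 1 library at a time, it lay between 0 and 6 in males (5 or 6 without AVP male 2, 3 or 4, and 0 without AVP male 1 or saline male 2, 3 or 4), between 0 and 6 in females (6 without saline female 4, 1 without saline female 2 or AVP female 3) and between 0 and 1 for the interaction (1 without saline male 1). The difference of Kcnj13 in males, -0.07, turned to 0.0131 with median-of-ratios scaling and to 0.0807 with quantile normalization, and without 1 library it lay between -0.24 and 0.13 (above 0 without saline male 2, AVP male 3 or AVP male 4). In males, the difference of Otx2 lay between -0.48 and 0.19 (above 0 without saline male 1 or 2) and that of Prlr between -0.21 and 0.0673 (above 0 without saline male 1), each without 1 library. Of 200 values of single members under alternatives that kept every library, 2 turned sign, and of 210 values with 1 library left out, 6 did; the cause was not tested. With 1 of the 6 libraries with much Ttr left out, r ranged from 0.974 to 0.999 for Kcne2, 0.93 to 0.98 for Folr1, 0.89 to 0.99 for Otx2, 0.72 to 0.97 for Sostdc1 and 0.76 to 0.97 for Clic6. Correlation of values centred on their group means was not run, since the sets leave groups with 1 library. Centring on the means of the sexes was not run either. No paired analysis was possible because replicate numbers were given in the order of records and the labels do not link littermates.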
